A study of Mus musculus with 24 samples.

Results

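The 29 genes described here mark the B lineage from its commitment to the mature B cell. They were found by gene name, or by an older symbol of the same gene, in the deposited array files, and all 29 were among the 23767 genes tested. The list was chosen with earlier results of these data known, and the brightest probe stood for each gene. They are Cd79a, Cd79b, Blk, Blnk, Btk and Bank1 (antigen receptor and its adaptors), Cd22, Cd72, Cr2, Fcer2a, Fcrl1, Fcrla, Fcmr, Ms4a1, Cd37 and Cd38 (surface coreceptors and related proteins), Pax5, Spib, Pou2f2, Pou2af1 and Bach2 (transcription factors), Ltb, Cd40, Tnfrsf13b and Tnfrsf13c (TNF family), and Cxcr5, Ralgps2, Swap70 and Klhl6 (a chemokine receptor and cytoplasmic proteins).

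RNA of bone marrow from female C57BL/6j mice aged 6 weeks was hybridised to 24 two-colour Agilent arrays. Each held a sample in Cy3 and, per the labels, a common reference in Cy5, pooled marrow of oil-treated wild-type (WT) mice. Mice had received olive oil or 1 of 3 agents that activate AhR, the aryl hydrocarbon receptor, by intraperitoneal injection, at 50 mg/kg per the labels for every agent. WT marrow was measured after oil (3 arrays), 6 h after BP (benzo(a)pyrene, 2 arrays), 12 h after DMBA (7,12-dimethylbenz(a)anthracene, 3 arrays) and 12 h after TCDD (2,3,7,8-tetrachlorodibenzo-p-dioxin, 3 arrays). Marrow labelled Cyp1b1-null was measured after oil (2 arrays) and 12 h after DMBA (2 arrays), Cyp1a1-null marrow after oil (3 arrays) and 12 h after BP (3 arrays), and marrow labelled null for both genes (double-null) after oil (1 array) and 12 h after BP (2 arrays). CYP1A1 and CYP1B1 are the P450 enzymes that oxidise BP and DMBA. The labels describe each sample as a pool of 9 without saying of what, and do not say how the null alleles were made or whether replicates came from separate mice, so that p-values measure the spread between these arrays. A log ratio is log2(Cy3/Cy5), a log2 change is the difference between the mean log ratios of 2 groups with its standard error (SE), and a gene was called at a Benjamini-Hochberg adjusted p under 0.05 over all genes tested with limma. The arrays lay on 10 slides. Log ratios correlated at a median r of 0.76 between arrays of the same slide, same group or not, and 0.23 between arrays of different slides. Given group, the consensus correlation within slides was 0.82, or 0.57 without WT oil replicate 1. The fit took arrays of a slide as independent, so for groups on 1 slide its SEs and p-values can understate the spread.

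B cells form in the marrow from lymphoid progenitors under factors that include Pax5, and pass through pro-B and pre-B stages before they carry an antigen receptor at the surface. The receptor signals through the CD79A and CD79B chains, the kinases BLK and BTK and the adaptor BLNK. CD22 and CD72 restrain that signal, and CR2 (CD21), FCER2A (CD23), CXCR5 and TNFRSF13C (the BAFF receptor) are acquired as B cells mature. POU2F2 (OCT2) and its coactivator POU2AF1 act through the octamer motif, and SPIB is a factor of the ETS family.

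Promoter sequence was in hand for 24 of the 29 genes, and Cd79b, Ms4a1, Cxcr5, Blk and Cd40 had no entry in the table used (RefSeq, build GRCm38.p6). The 250 bases before the start of transcription were searched on both strands for 3 motifs, none of which overlaps another: the octamer ATGCAAAT read by POU2F2, the ETS motif GAGGAAGT, and GCGTG, the core of the element bound by AhR. The octamer was found in 1 of the 24 (Blnk), against 1.60% of 32851 mouse promoters of the same length. The ETS motif was found in 3 (Cd37, Cd72 and Fcrl1), against 2.44% of all, and GCGTG in 4 (Cd79a, Pax5, Ralgps2 and Swap70), against 28.2% of all. The 4 sequences below are those with a match among genes called in at least 1 comparison, on the strand of the gene, 5′ to 3′, with the match in capitals (a match on the other strand reads as its complement, CACGC for GCGTG), and a match is a description of these letters alone.
Blnk (octamer, chr19:40994222-40994471, minus strand): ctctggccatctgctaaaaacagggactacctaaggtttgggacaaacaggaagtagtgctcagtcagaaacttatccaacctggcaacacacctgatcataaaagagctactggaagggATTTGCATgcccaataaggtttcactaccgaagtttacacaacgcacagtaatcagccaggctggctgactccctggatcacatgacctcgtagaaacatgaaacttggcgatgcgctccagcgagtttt
Cd72 (ETS motif, chr4:43454627-43454876, minus strand): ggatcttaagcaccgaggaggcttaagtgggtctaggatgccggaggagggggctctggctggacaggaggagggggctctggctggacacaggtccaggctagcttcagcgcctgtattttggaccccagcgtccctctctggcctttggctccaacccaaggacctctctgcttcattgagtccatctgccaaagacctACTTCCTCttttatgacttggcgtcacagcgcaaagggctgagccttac
Pax5 (GCGTG, chr4:44710695-44710944, minus strand): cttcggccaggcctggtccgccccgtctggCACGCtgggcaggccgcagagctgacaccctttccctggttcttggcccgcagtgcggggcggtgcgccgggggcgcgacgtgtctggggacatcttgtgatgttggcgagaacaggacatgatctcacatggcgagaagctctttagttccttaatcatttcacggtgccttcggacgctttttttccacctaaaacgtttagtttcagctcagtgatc
Ralgps2 (GCGTG, chr1:156939627-156939876, minus strand): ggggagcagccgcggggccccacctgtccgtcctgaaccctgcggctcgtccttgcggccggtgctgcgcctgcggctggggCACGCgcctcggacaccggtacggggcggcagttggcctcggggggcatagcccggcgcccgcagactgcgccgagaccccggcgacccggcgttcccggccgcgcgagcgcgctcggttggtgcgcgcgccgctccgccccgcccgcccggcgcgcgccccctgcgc

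Of the 29 genes, 27 were well above background in Cy3 on all 24 arrays (Pou2f2 and Fcer2a on 23 arrays each), and none was saturated. In Cyp1a1-null and double-null marrow Cyp1a1 was not well above background on any array, BP included, against both WT BP and all 3 WT DMBA arrays. After TCDD in WT it was well above background on 2 of 3 arrays, with log ratios of 0.18, 0.15 and 1.55. Those after BP were 1.71 to 1.94 and those after DMBA 1.76 to 1.93, so only TCDD replicate 3 came near them. Cyp1b1 was well above background on every array labelled Cyp1b1-null or double-null, with log ratios of 0.06 to 1.57. That goes against the label unless the probe lies outside the deleted part, and nothing used here gives its position, so the probe checks nothing, and the arrays are called by their labels.

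WT oil replicate 1 stood apart. The 29 genes had a median log ratio of 2.99 on it, with all 29 above 0, against medians of -0.69 to 0.40 on the other 23 arrays. In its Cy3 channel the 29 genes lay at a median percentile of 84.6 of all probes, inside the range of the other arrays (79.4 to 89.4), whereas in its Cy5 channel they lay at 59.4, against 83.4 to 90.1 on the others. Summed Cy3 signals of a list of liver genes were 164 times the 75th percentile of the array on it and 0.693 to 3.21 times elsewhere, with a median log ratio of -2.91, lower in Cy3 than in the reference. The rise was not particular to the 29 genes. Median log ratios on it were 4.26 for neutrophil, 3.41 for pro-B and pre-B, 2.75 for erythroid and 1.84 for MHC class II genes, above all other arrays. Those of monocyte and macrophage (0.02) and immunoglobulin and plasma cell genes (0.68) lay inside the range of the others. Log ratios of this array correlated with those of the others across genes at r of -0.01 to 0.18. Its Cy5 signals had a median rank correlation of 0.80 with those of the other arrays, the lowest of the 24. Whether its Cy5 held the same reference was not tested, and changes against WT oil from all 24 arrays include it. Every comparison is therefore given from all 24 arrays and from 23 arrays without WT oil replicate 1. WT oil replicates 2 and 3 correlated at 0.14, and the lowest correlation of any pair of arrays was -0.36, between Cyp1a1-null BP replicate 2 and WT oil replicate 3. All 6 comparisons with WT oil share these arrays, so their changes are not independent of each other.

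**Figure D1:**
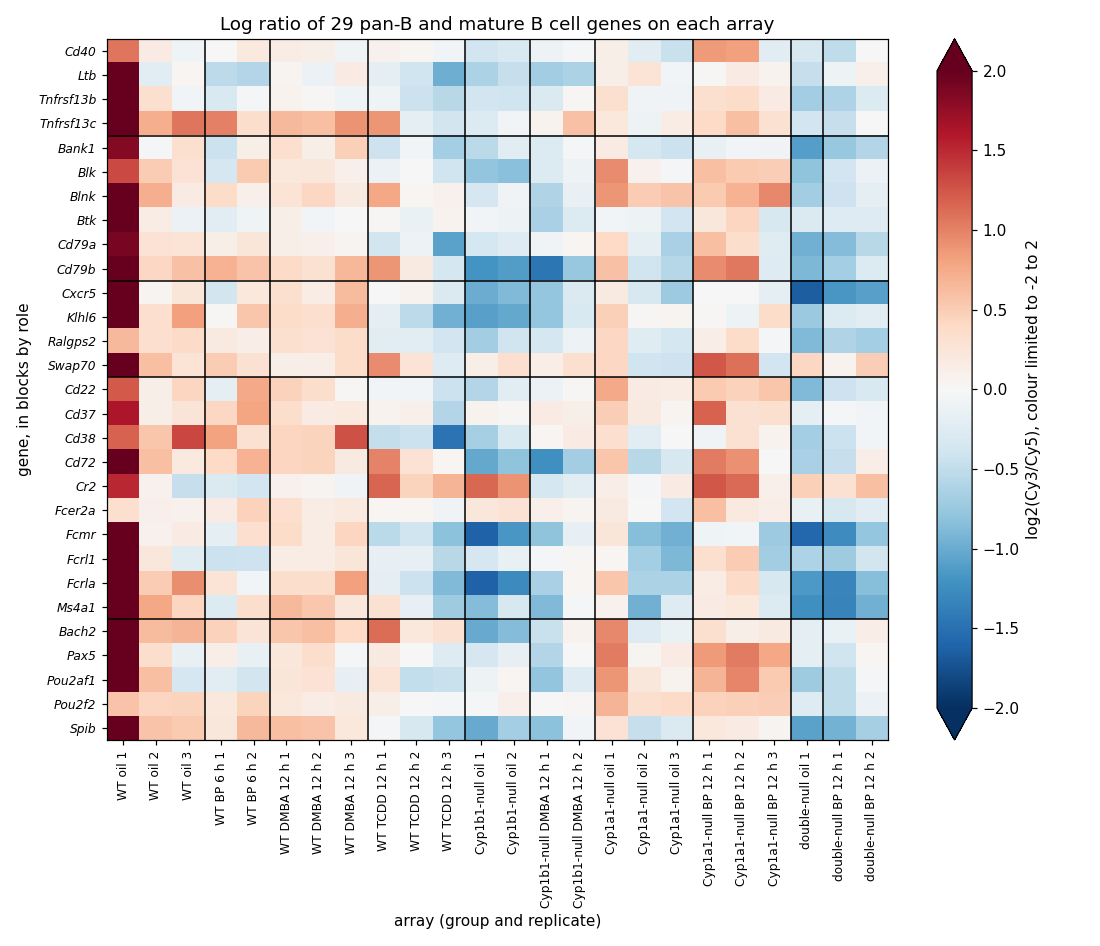
Log ratio of each of the 29 genes (vertical axis, in blocks by role) on each of the 24 arrays (horizontal axis, by group and replicate), in red where Cy3 was above the reference and blue where it was below, with colours limited to -2 and 2. WT oil replicate 1 is red for all 29 genes. Of the 29, 22 to 27 are below 0 on the oil arrays labelled Cyp1b1-null, the 3 double-null arrays and WT TCDD replicate 3. On DMBA replicate 1 labelled Cyp1b1-null 23 are below 0.

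By the sample channel alone, the 7 arrays labelled as lacking Cyp1b1 were the lowest of the 24 for these genes. Their median Cy3 percentile was 79.4 to 83.3, against 84.3 to 89.4 on the 17 arrays labelled as carrying Cyp1b1, WT oil replicate 1 included. The reference channel differed as well, since the 4 arrays labelled Cyp1b1-null had Cy5 percentiles of 87.6 to 88.2, above those of the double-null arrays (83.4 to 83.9). The highest Cy5 percentile, 90.1, belonged to Cyp1a1-null BP replicate 2, on the same slide as the Cyp1b1-null oil arrays. The part of Cy5 in the log ratios was not tested, and values from Cy3 alone are given beside the comparisons in which genes were called.

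**Figure D2:**
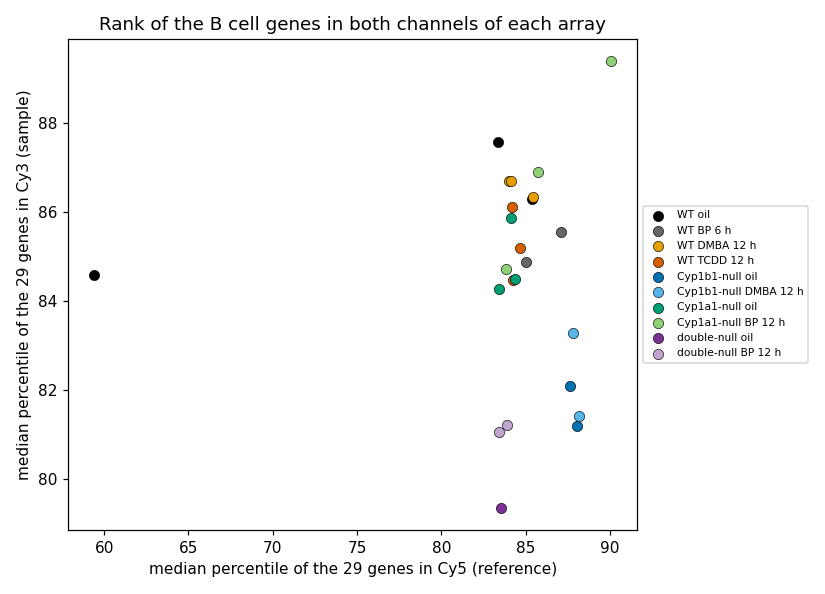
Median percentile of the 29 genes among all probes in Cy5 (horizontal axis, reference) and Cy3 (vertical axis, sample), 1 point per array coloured by group. The 7 points labelled Cyp1b1-null or double-null lie at 79.4 to 83.3 in Cy3, below the other 17, and WT oil replicate 1 lies alone at 59.4 in Cy5.

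Marrow labelled Cyp1b1-null was compared with WT marrow after oil to ask what loss of the enzyme changes without a ligand. B cell genes were lower: 14 of the 29 were called lower and none higher, in every role but the TNF family, with changes of -0.44 (Pou2f2) to -3.74 (Fcrla) and a median over the 29 of -1.52. Over all genes 6.92% were called lower and the median change was 0.06. In 23 of the 29 every array labelled Cyp1b1-null lay below every WT oil array, against 16.3% of all genes. Without WT oil replicate 1, 15 were called lower and 1, Cr2, higher (12.4% of all genes were called lower and 17.5% higher), with a median of -0.65. In the authors' deposited table, whose scaling is not stated, the median over the 29 was -0.99, and 28 were below 0. Its header names every WT oil array, replicate 1 included. In bulk marrow, fewer cells of a type and less RNA per cell cannot be told apart.

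Of the receptor genes, Cd79b, which carries the signal of the antigen receptor, stood at log ratios of -1.20 and -1.12 on the arrays labelled Cyp1b1-null and at 5.27, 0.42 and 0.58 on the WT oil arrays. It fell by 3.25 ± 0.96 (adjusted p = 0.0326), or by 1.66 ± 0.43 (adjusted p = 0.00908) without WT oil replicate 1. The Src family kinase Blk fell as well, -1.52 ± 0.30 and -1.22 ± 0.27 in the 2 fits. Cd79a, the partner of Cd79b, stood at -1.12 ± 0.41 (adjusted p = 0.0748) and -0.58 ± 0.31 and was not called, nor were Blnk, Btk and Bank1.

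Fcrla, an intracellular Fc receptor-like protein of B cells, gave the largest change. Its log ratios were -1.62 and -1.27 on the arrays labelled Cyp1b1-null and 5.44, 0.51 and 0.93 after oil in WT, a change of -3.74 ± 0.93 (adjusted p = 0.0162), or -2.16 ± 0.36 (adjusted p = 0.001) without WT oil replicate 1. Fcmr, the Fc receptor for IgM, was at -1.62 and -1.17 against 3.90, 0.08 and 0.16, and changed by -2.78 ± 0.76 and -1.52 ± 0.34. In both genes each array of one group lay below each array of the other. Ms4a1 (CD20), Cd72 and the NAD-consuming ectoenzyme Cd38 were called lower in both fits, while Cd22 was called with all arrays (-0.99 ± 0.30) and not without WT oil replicate 1 (-0.67 ± 0.26, adjusted p = 0.0603). Cr2, the complement receptor of mature B cells, went the other way: its log ratios were 1.15 and 0.89 against 1.5, 0.08 and -0.46, and its change was 0.65 ± 0.41 (adjusted p = 0.293) with all arrays and 1.21 ± 0.29 (adjusted p = 0.00625) without WT oil replicate 1. The other Cr2 probe, which was well above background on 22 arrays, changed by -0.58 in that comparison, so the direction of Cr2 rests on the probe. By the first probe Cr2 was also at 1.25 and 1.13 on Cyp1a1-null BP replicates 1 and 2. These shared a slide with the arrays labelled Cyp1b1-null, and the part of slide was not tested. Fcer2a was the only other gene of the 29 with a higher mean than in WT oil, in both fits. It was at 0.23 and 0.29 against 0.33, 0.10 and 0.09 and was not called.

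Among the transcription factors, Bach2, which represses plasma cell differentiation, stood at -1.0 and -0.86 against 3.01, 0.63 and 0.68 and fell by 2.37 ± 0.53 (1.59 ± 0.32 without WT oil replicate 1). Spib was at -1.02 and -0.68 against 3.57, 0.57 and 0.52 and fell by 2.40 ± 0.61 (1.39 ± 0.28). Pou2f2 fell by 0.44 ± 0.13 (0.39 ± 0.14). Pax5, the identity factor of the lineage, changed by -1.36 ± 0.62 and -0.35 ± 0.28, and Pou2af1 by -1.96 ± 1.04 and -0.16 ± 0.33, neither of them called. A second Pax5 probe, well above background on 20 arrays, had a change of 0.34 where the first had -0.35.

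The follicular homing receptor Cxcr5, the guanine nucleotide exchange factor Ralgps2 and Klhl6, a ubiquitin ligase adaptor of B cells, were called lower in both fits. Klhl6 stood at -1.08 and -1.02 against 2.99, 0.33 and 0.82, a change of -2.43 ± 0.50 (adjusted p = 0.00717) and, without WT oil replicate 1, of -1.63 ± 0.26 (adjusted p = 0.000736), and its other probe changed by -1.81. The TNF receptors Tnfrsf13c (BAFF receptor) and Tnfrsf13b (TACI) were called without WT oil replicate 1 (-1.06 ± 0.32 and -0.53 ± 0.18) and not with all arrays, and Cd40 and Ltb in neither fit.

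The count rests on both arrays labelled Cyp1b1-null: without replicate 1 of them no gene was called, without replicate 2 only Ralgps2 was, and without WT oil replicate 3, 22 were (8.40% of all genes called lower). From Cy3 alone 6 of the 29 were called lower (4.44% of all genes) and the median change was -0.73. The 2 arrays shared a slide with Cyp1a1-null BP replicates 1 and 2, whose median log ratios over the 29 genes were 0.39 and 0.39 where theirs were -0.53 and -0.31, but not with a WT oil array. With slide as a random block 0 were called with all arrays and 8 without WT oil replicate 1. The share of all genes called under that setting is not given here.

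**Figure D3:**
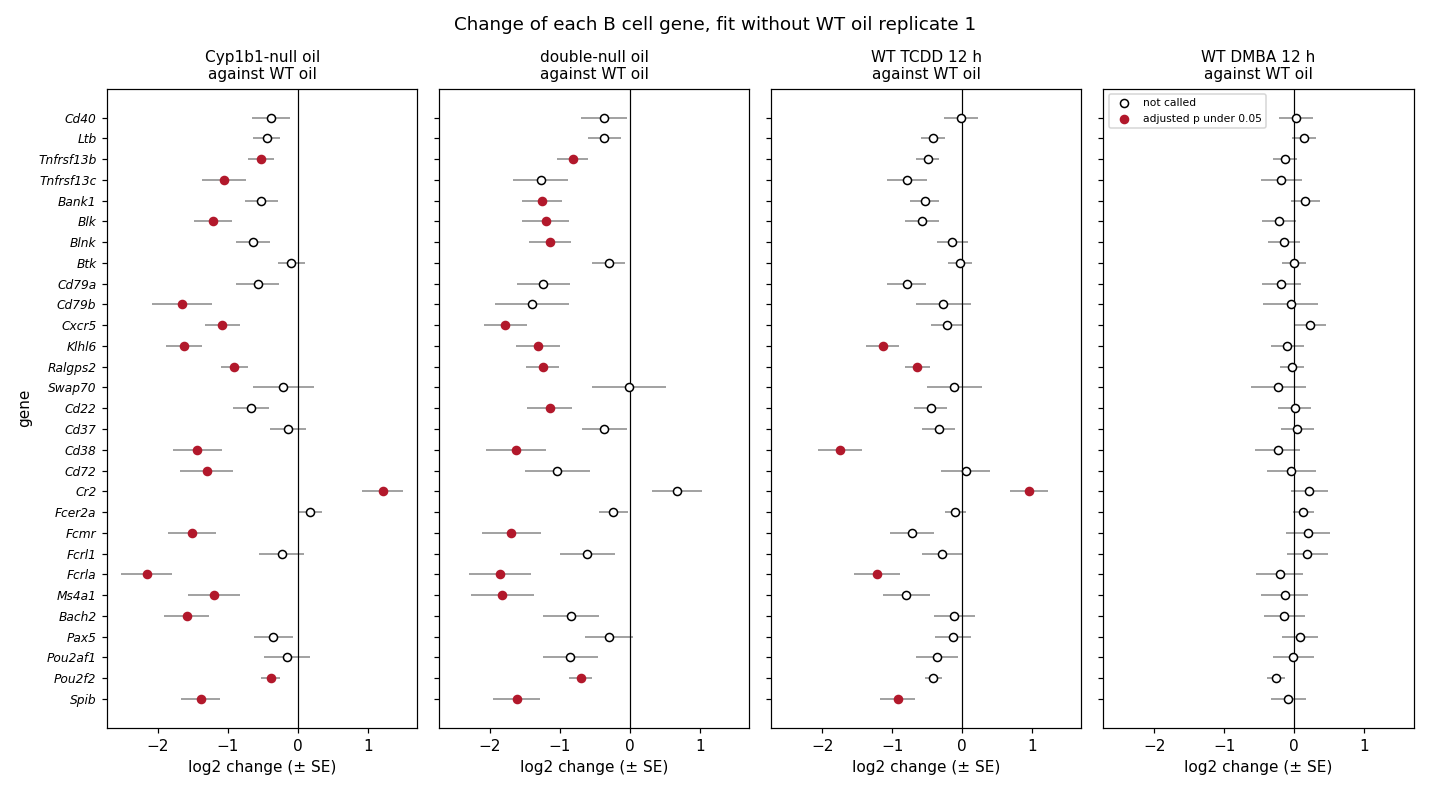
Log2 change of each of the 29 genes (vertical axis) in 4 comparisons with WT oil, from the fit without WT oil replicate 1; bars are 1 SE and filled points were called at an adjusted p under 0.05. Called genes number 16 in marrow labelled Cyp1b1-null (15 lower), 14 in double-null marrow, 6 after TCDD (5 lower) and 0 after DMBA.

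Double-null marrow after oil was a single array, assumed to vary like the other groups. Cxcr5, Pou2f2 and Ralgps2 were called lower and no other gene, with a median over the 29 of -1.71 (0.846% of all genes were called lower). Without WT oil replicate 1, 14 were called lower (2.97% of all genes), with a median of -1.14. Cxcr5 had its lowest log ratio of any array here, -1.64 against 2.13, 0.05 and 0.24 after oil in WT, and changed by -2.45 ± 0.55 (adjusted p = 0.0351), or -1.78 ± 0.31 (adjusted p = 0.005) without WT oil replicate 1. Ralgps2 was at -0.88 against 0.64, 0.34 and 0.39 and Pou2f2 at -0.27 against 0.57, 0.42 and 0.45. In both genes every WT value lay above the double-null value. Fcrla (-1.14), Ms4a1 (-1.22), Fcmr (-1.57), Spib (-1.08) and Cd38 (-0.68) had log ratios below every WT oil array too, and were called without WT oil replicate 1 with changes of -1.86, -1.82, -1.70, -1.62 and -1.63.

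The adaptor genes Blnk and Bank1, not called in marrow labelled Cyp1b1-null, were called lower in the double-null array without WT oil replicate 1 (-1.14 ± 0.30 and -1.26 ± 0.28). The difference between the 2 genotypes was not tested. Swap70, at a log ratio of 0.42, and Cr2, at 0.48, were the only genes of the 29 above 0 on this array. From Cy3 alone 0 genes were called (1 without WT oil replicate 1), against 0.438% of all genes (0.808%), with a median of -0.98, and 0 with slide as a random block. The array shared its slide with no WT array. With all arrays but WT oil replicate 2 or 3, 13 and 7 genes were called lower, against 3.32% and 1.33% of all genes.

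In Cyp1a1-null marrow after oil no B cell gene was called with limma in either fit, with 17 and 6 of the 29 at an unadjusted p under 0.05 (over all genes, 3.48% and 7.58% were called in either direction). The median change was -1.12 with all arrays and -0.40 without WT oil replicate 1, where the median 95% interval of a gene ran from -0.79 to 0.18. The 3 arrays differed among themselves: replicate 1 had 28 of the 29 genes above 0 and replicates 2 and 3 had 19 below 0 each. Ms4a1 was at 0.09, -0.96 and -0.26, and Cd38 at 0.34, -0.23 and 0.00, both below all WT oil arrays, with changes without WT oil replicate 1 of -0.98 ± 0.33 (adjusted p = 0.0817) and -0.91 ± 0.32 (adjusted p = 0.09). Without WT oil replicate 2 or 3, which leaves replicate 1 as 1 of 2 control arrays, 17 and 15 of the genes were called lower, as were 10.9% and 9.39% of all genes. From Cy3 alone 1 gene was called lower and 1 higher (1.99% and 2.90% of all genes).

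In WT marrow 12 h after TCDD, a dioxin that resists metabolism, 28 of the 29 genes had a lower mean than after oil (27 without WT oil replicate 1), and few of them were called. In 15 of the 29 every TCDD array lay below every oil array, against 10.7% of all genes. Cd38, Klhl6, Ralgps2 and Pou2f2 were called lower with all arrays (1.91% of all genes were), and Cd38, Klhl6, Ralgps2, Spib and Fcrla lower and Cr2 higher without WT oil replicate 1 (3.98% lower and 2.27% higher among all genes). The medians were -1.10 and -0.41. Cd38 stood at -0.48, -0.42 and -1.48 after TCDD against 1.18, 0.56 and 1.34 after oil, with no overlap, and fell by 1.82 ± 0.29 (adjusted p = 0.0097) and 1.74 ± 0.32 (adjusted p = 0.00889) in the 2 fits. Its other probe changed by -0.47.

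Klhl6 was at -0.18, -0.52 and -0.97 after TCDD, Spib at -0.03, -0.32 and -0.78, and Fcrla at -0.18, -0.43 and -0.88, each below all 3 oil arrays. Ralgps2 was at -0.21, -0.23 and -0.38 against 0.64, 0.34 and 0.39, a change of -0.73 ± 0.17 (-0.64 ± 0.18). Cr2 was at 1.16, 0.45 and 0.68, overlapping the oil arrays because of WT oil replicate 1, and its other probe changed by -0.14. The receptor genes Cd79a and Cd79b, and Cxcr5, Bach2, Pax5 and Ms4a1, were not called. TCDD replicate 3 carried the lowest log ratio of the 3 arrays for most of the genes, with 24 of the 29 below 0 on it, against 14 and 17 on the others. The 4 calls fell to 0 without it, and rose to 18 without WT oil replicate 2 or 3 (10.2% and 6.38% of all genes called lower). Leaving out WT DMBA replicate 1 or 2 or TCDD replicate 1 or 2 left 1 call, and leaving out any array labelled Cyp1b1-null, Cyp1a1-null oil replicate 2 or 3 or Cyp1a1-null BP replicate 2 left 2. From Cy3 alone 6 genes were called lower and 1 higher (6.04% and 7.71% of all genes), and with slide as a random block 0. The TCDD arrays filled a slide of their own. On replicates 1, 2 and 3 of them Cyp1a1 was at 0.18, 0.15 and 1.55. The 5th percentile of normalized log2 Cy3 was 7.84, 9.13 and 5.97 in the same order. The part of either in the changes of the B cell genes was not tested.

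After DMBA, given to WT mice at the same dose and time, no gene of the 29 was called with limma, in either fit (5 and 0 at an unadjusted p under 0.05), and 0% and 0.101% of all genes were called. The median change was -0.92 with all arrays and -0.04 without WT oil replicate 1, where the median 95% interval of a gene ran from -0.52 to 0.51. Within the 1 slide that held both groups (DMBA replicates 1 and 2 and WT oil replicate 2) the median was -0.07. BP at 6 h gave no call either (8 and 1 at an unadjusted p under 0.05, 0.833% and 3.89% of all genes called), with medians of -1.08 and -0.20. Ltb, the lymphotoxin chain, was below all oil arrays on both BP arrays (-0.53 and -0.59 against 3.30, -0.23 and 0.04) and changed by -0.46 ± 0.19 (adjusted p = 0.199) without WT oil replicate 1. BP was measured at another time than DMBA and TCDD and was not compared with them.

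DMBA and TCDD were the 1 pair of agents matched in dose, time and genotype. DMBA is a polycyclic aromatic hydrocarbon of fused benzene rings with methyl groups, and TCDD a planar chlorinated dioxin. Cd38 was higher after DMBA, at 0.44, 0.44 and 1.27 against -0.48, -0.42 and -1.48, a difference of 1.51 ± 0.29 (adjusted p = 0.0277, or 0.0048 without WT oil replicate 1), and was the only gene of the 29 called with all arrays (0.543% of all genes were called higher). Without WT oil replicate 1, which enters this pair only through the shared spread, 6 were called higher (4.56% of all genes) and none lower: Cd38, Klhl6 (1.03 ± 0.21), Spib (0.83 ± 0.23), Bank1 (0.70 ± 0.19), Ralgps2 (0.60 ± 0.16) and Ltb (0.56 ± 0.16). In 16 of the 29 genes every DMBA array lay above every TCDD array, against 17.5% of all genes. The DMBA and TCDD arrays shared no slide, and with slide as a random block no gene of the 29 was called in either fit. From Cy3 alone 7 were called higher and 1 lower, against 11.1% and 13.7% of all genes.

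For the other genes the 2 agents could not be told apart by the test, and the intervals leave room for differences. That of Blnk, with a difference of -0.00, ran from -0.43 to 0.42, and that of Cd72 from -0.74 to 0.56, both without WT oil replicate 1. Cr2 was lower after DMBA on all arrays (-0.74 ± 0.24, adjusted p = 0.0767 without WT oil replicate 1). Leaving out any 1 DMBA array, or TCDD replicate 1 or 3, ended the 1 call with all arrays, and leaving out Cyp1a1-null oil replicate 1 gave 2. Erythroid genes differed between the same arrays: 6 of 11 were called lower after DMBA without WT oil replicate 1 and 1 with all arrays (Car1 -1.55 ± 0.19 and Hba-a1 -1.05 ± 0.21), and their part in the difference of the B cell genes was not tested. Of all 23767 genes, 449 were called lower without WT oil replicate 1 and 30 with all arrays.

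**Figure D4:**
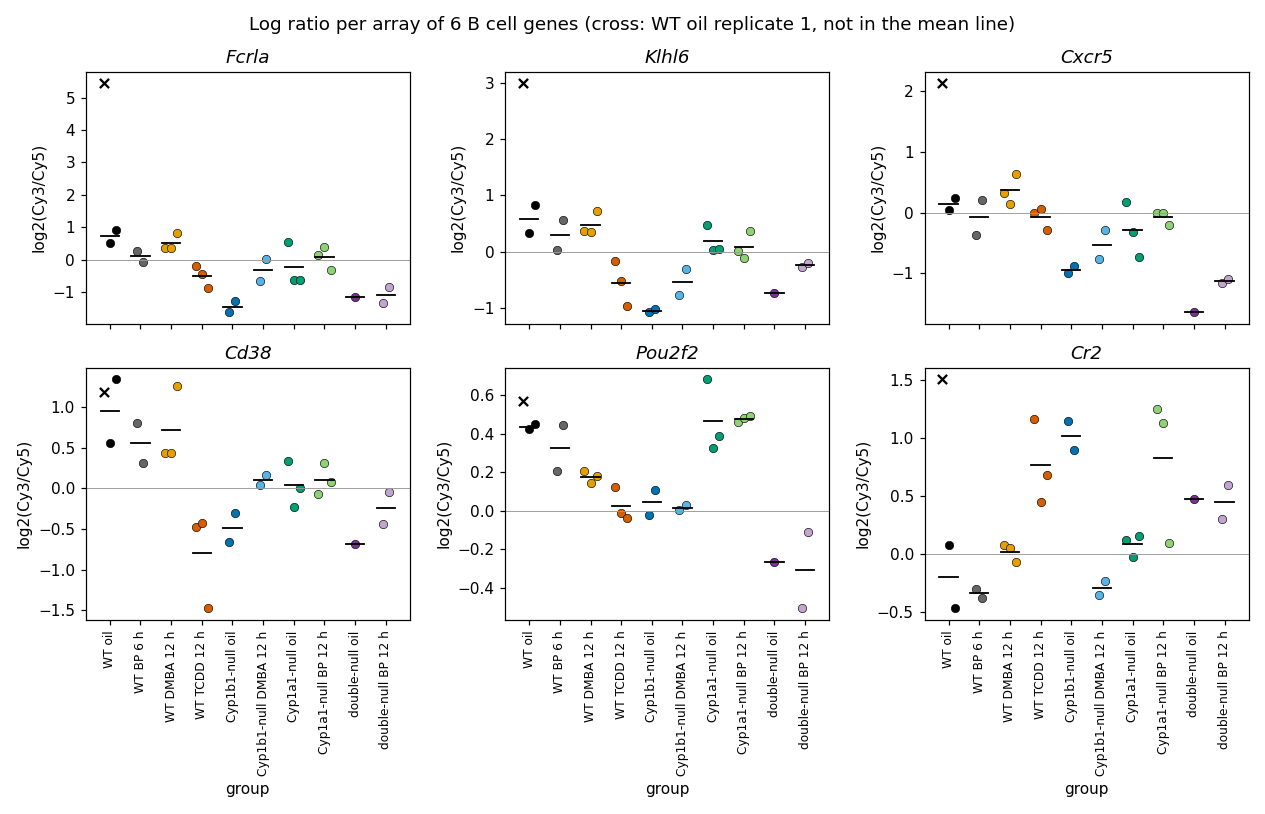
Log ratio on each array (vertical axis) of Fcrla, Klhl6, Cxcr5, Cd38, Pou2f2 and Cr2 in the 10 groups (horizontal axis), with a line at the mean of each group; the cross is WT oil replicate 1, left out of the line. Cd38 has its lowest group mean after TCDD (values -1.48 to -0.42), Cxcr5 and Pou2f2 in the double-null groups, and Cr2 runs against the other genes, at 0.89 and 1.15 in the oil arrays labelled Cyp1b1-null.

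In marrow labelled Cyp1b1-null, DMBA was compared with oil of the same genotype. The DMBA arrays lay on a slide of their own, so treatment and slide cannot be told apart here. No B cell gene was called with all arrays (1 at an unadjusted p under 0.05, 0.0252% of all genes called), and Cr2 alone was called, lower, without WT oil replicate 1 (4.28% of all genes were called lower). Its log ratios were -0.35 and -0.23 after DMBA and 1.15 and 0.89 after oil, a change of -1.31 ± 0.29 (adjusted p = 0.0142), while its other probe was at 0.00 and 0.02 against -0.36 and -0.51. From Cy3 alone the change of Cr2 was 0.28. Of the other genes 20 had a positive change and 8 a negative one, with a median over the 29 of 0.24. Fcrla was at -0.65 and 0.03 after DMBA against -1.62 and -1.27 after oil (1.14 ± 0.36, adjusted p = 0.0623). Log ratios over all genes spread less on the DMBA arrays, with standard deviations of 0.25 and 0.21 against 0.51 and 0.50 after oil. The 5th percentile of normalized log2 Cy3 was higher, 8.17 and 8.73 against 6.41 and 5.95. The part of these array differences in the changes toward 0 was not tested.

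Between genotypes after DMBA, 24 of the 29 genes were lower on both arrays labelled Cyp1b1-null than on all 3 WT arrays, against 18.2% of all genes. No gene was called with all arrays (1 at an unadjusted p under 0.05, 0.109% of all genes called), and Klhl6 alone without WT oil replicate 1 (0.757% of all genes called lower), at -0.77 and -0.30 against 0.37, 0.34 and 0.72 (-1.01 ± 0.23, adjusted p = 0.0353). Cd79b stood at -1.45 and -0.75 against 0.39, 0.31 and 0.66 (-1.55 ± 0.39, adjusted p = 0.0551) and Ltb at -0.70 and -0.63 against 0.06, -0.11 and 0.17 (-0.70 ± 0.17, adjusted p = 0.0517). From Cy3 alone 14 genes were called lower and 1 higher, against 7.12% and 13.7% of all genes. The difference between the DMBA responses of the 2 genotypes was called for no gene with all arrays (3 at an unadjusted p under 0.05, 0.00842% of all genes called) and for Cr2 without WT oil replicate 1 (-1.52 ± 0.39, adjusted p = 0.0459, with 1.73% of all genes called lower).

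BP at 12 h was given to Cyp1a1-null and to double-null mice. Against oil of the same genotype no B cell gene was called in either fit (2 and 5, and 0 and 0, at an unadjusted p under 0.05), and medians were 0.30 and 0.25, while 0.0337% and 0.156% of all genes were called in the first comparison and 0.261% and 0.505% in the second. Within the slide that held BP replicate 3 and the 3 Cyp1a1-null oil arrays, and the whole double-null set, the medians were 0.07 and 0.25. On Cyp1a1-null BP replicates 1 and 2 Cr2, Swap70 and Cd79b lay near or above 1 (1.25 and 1.13, 1.24 and 1.10, 0.95 and 1.06) and on replicate 3, which was on another slide, at 0.10, -0.38 and -0.26.

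The 2 BP groups, matched in dose and time, differed by the label of Cyp1b1 and also by slide, since they shared none. All 29 genes had a lower mean in double-null marrow, with a median difference of -0.73. Pou2f2 was at -0.50 and -0.11 against 0.46, 0.48 and 0.49, a change of -0.79 ± 0.13 (adjusted p = 0.0179), and was the 1 gene called with all arrays (0.0842% of all genes were called lower). Without WT oil replicate 1, 9 were called lower (1.99% of all genes): Pou2f2, Ralgps2, Cxcr5, Blnk, Tnfrsf13b, Pax5, Fcer2a, Spib and Cd22. Cxcr5 was at -1.16 and -1.09 against 0.00, 0.00 and -0.20 (-1.06 ± 0.23), Blnk at -0.41 and -0.18 against 0.52, 0.69 and 0.96 (-1.02 ± 0.22), and Pax5 at -0.39 and 0.04 against 0.86, 1.04 and 0.78 (-1.07 ± 0.26), with no overlap in any of the 3. The groups did not overlap for 20 of the 29 genes, all lower, against 15.2% of all genes. No gene was called without Cyp1a1-null BP replicate 1 or 2 or double-null BP replicate 1, 4 were without Cyp1a1-null BP replicate 3 (4.65% of all genes called lower) and 2 without Cyp1a1-null oil replicate 1 (0.0884%). With slide as a random block no gene was called in either fit. From Cy3 alone 2 genes were called lower (0.311% of all genes), and Blnk changed by 0.27.

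The surrounding genes of the lineage were read from lists that hold none of the 29. Of 15 pro-B and pre-B genes, 5 were called lower and none higher in marrow labelled Cyp1b1-null after oil, in either fit (median -0.33 without WT oil replicate 1), with Foxo1 at -1.34 ± 0.25, the surrogate light chain gene Vpreb3 at -1.40 ± 0.27 and the recombinase gene Rag1 at -1.99 ± 0.44. In double-null marrow 4 of the 15 were called lower without WT oil replicate 1 (median -0.76), Rag2 (-0.76 ± 0.13, well above background on 7 of the 24 arrays) and Vpreb3 (-1.37 ± 0.33) with the smallest adjusted p, and after TCDD 2, Vpreb3 (-0.95 ± 0.25) and Bst1 (-0.61 ± 0.16). Of 17 other genes of receptor signalling, Prkcb was called lower in all 3 (-0.95, -1.10 and -0.93). The full counts without WT oil replicate 1 were 4 lower and 2 higher in marrow labelled Cyp1b1-null, 3 lower in double-null marrow and 3 lower after TCDD. Of 10 MHC class II genes, which B cells share with other antigen-presenting cells, 4, 2 and 0 were called lower.

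Markers of other marrow cells moved in the same arrays. In marrow labelled Cyp1b1-null after oil, without WT oil replicate 1, 3 of 10 neutrophil genes (S100a9 1.93 ± 0.29, Camp 1.16 ± 0.32) and 4 of 10 monocyte and macrophage genes (C1qb 1.39 ± 0.17, Adgre1 0.68 ± 0.13) were called higher and none lower, and 3 of 11 erythroid genes were called lower. In that fit 17.5% of all genes were called higher and 12.4% lower, and with lists this short a count of 1 or 2 is near those shares. Summed Cy3 signals of the neutrophil list were 729 to 991 times the 75th percentile of the array in that group and 772 to 1351 times in WT oil, and those of the erythroid list 298 to 315 and 435 to 642 times, so the 2 neutrophil ranges overlapped in Cy3 where the log ratios were higher. With all arrays no neutrophil gene, 3 monocyte and macrophage genes and 1 erythroid gene were called, in the same directions. In double-null marrow the neutrophil median was -0.59, with 0 of 10 called. Of 9 immunoglobulin and plasma cell genes, 2 rose, Jchain (1.95 ± 0.36) among them, and 5 fell in marrow labelled Cyp1b1-null, Sdc1 (-0.87 ± 0.21) and Irf4 among them. Of 11 T and NK cell genes 1 was called higher and 2 lower there. Of 6 plasmacytoid dendritic cell genes, a cell type that also expresses Spib, 1 was called higher and 2 lower. The part of these cells in the change of the 29 genes was not tested.

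**Figure D5:**
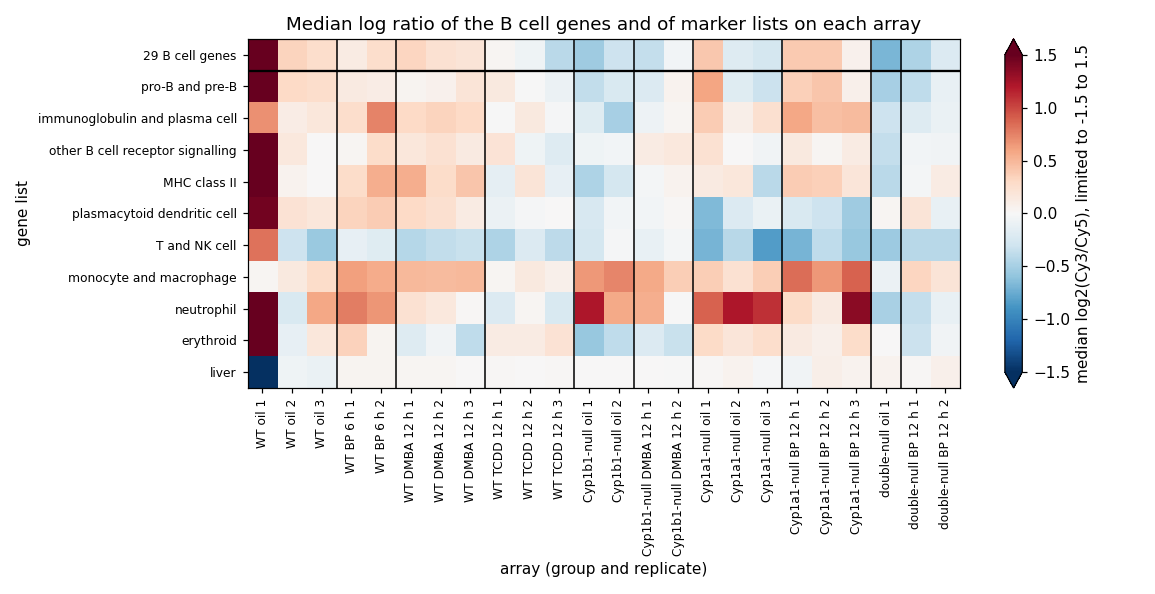
Median log ratio of the 29 B cell genes (top row) and of 10 lists of marker genes (other rows) on each array, in red where Cy3 was above the reference and blue below, with colours limited to -1.5 and 1.5. The pro-B and pre-B row is blue on the oil arrays labelled Cyp1b1-null (top row -0.53 and -0.31) and double-null (top row -0.69), and the liver row stands out on WT oil replicate 1 alone. On that array the neutrophil (4.26), pro-B and pre-B (3.41) and erythroid (2.75) rows are red like the top row.

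Over all comparisons 22 of the 29 genes were called at least once in either fit, and 14 with all arrays. Ralgps2, Klhl6 and Spib were each called in 5 of the 13 comparisons without WT oil replicate 1, and Pou2f2 in 4 with all arrays. The 7 genes never called were Btk, Cd79a, Cd37, Fcrl1, Pou2af1, Cd40 and Swap70. Their changes without WT oil replicate 1 in marrow labelled Cyp1b1-null after oil ran from -0.58 (Cd79a) to -0.10 (Btk). Where 2 probes of a gene were well above background on all arrays, which was so for 7 genes, they changed in the same direction in 7 of 7 in that comparison, after TCDD and in the double-null oil array. They did so in 6 of 7 in Cyp1a1-null oil and after BP or DMBA in WT. The same held for DMBA against TCDD, Cyp1b1-null against WT after DMBA and double-null against Cyp1a1-null after BP. The second probes of Cr2 and Pax5, which went the other way in marrow labelled Cyp1b1-null after oil, were not among these.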

How the data were processed

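Each array was deposited by the authors as scanner output, with mean and local background intensity in Cy3 and Cy5 and Agilent's log10 ratio per spot, from Feature Extraction 10.7.3.1 (4 arrays) or 9.1.3.1 (20 arrays) per the file headers. A deposited table of the authors holds log2 differences between groups; its scaling is not stated. Intensities were background-corrected (normexp, offset 50) and loess-normalized within each array with limma 3.58.1 in R 4.3.3, and M = log2(Cy3/Cy5) was taken. Control spots were left out. The brightest probe stood for a gene, and genes whose Cy3 was well above background on fewer than 3 arrays were not tested. One mean per group was fitted with limma over all 24 arrays, and again without WT oil replicate 1. Cy3 alone is log2 of the processed signal minus its 75th percentile on the array. The procedure was tested on simulated data.

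The 29 genes, the other lists and the alternatives were chosen with earlier results of these data known. Values of every array are given for genes called in either fit, at most the 6 largest changes of a comparison; others are given by range, and list genes by smallest adjusted p. Some examples (Ltb, Swap70, Cd79a, second probes) were picked after their values were seen. Each group's slides are few: WT BP, WT TCDD, both groups labelled Cyp1b1-null, Cyp1a1-null oil and the double-null groups each lay on 1 slide with no WT oil array, so slide and group cannot be told apart in their comparisons with WT. The same holds for DMBA against oil in marrow labelled Cyp1b1-null, whose groups shared no slide, and for the difference of DMBA responses. Replicate numbers did not pair arrays: deviations of same-numbered arrays from their group means correlated at -0.25 to 0.34 over 82 pairs.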

Additional observations from a re-analysis of the deposited data

Results flagged for a closer look

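Cr2 had different DMBA responses in the 2 genotypes without WT oil replicate 1. The response on arrays labelled Cyp1b1-null minus that in WT was -1.52 ± 0.39 (limma, adjusted p = 0.0459), with a response of -1.31 in the first and 0.21 in the second. It was -0.96 ± 0.58 (adjusted p = 0.508) with all arrays, and the sign turned from Cy3 alone (0.78). The other Cr2 probe was 0.00 and 0.02 after DMBA and -0.36 and -0.51 after oil on the arrays labelled Cyp1b1-null, the opposite order. On Cyp1a1-null BP replicates 1 and 2, which shared a slide with the oil arrays labelled Cyp1b1-null, Cr2 was at 1.25 and 1.13. It was at 0.10 on replicate 3, on another slide. The DMBA arrays labelled Cyp1b1-null lay on a slide of their own, so treatment and slide cannot be told apart in this response.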

How the results depend on the processing

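Of 507 alternative values of the median change over the 29 genes 496 stayed within the spread between arrays. That spread, the larger standard deviation of array medians among the groups compared, was 1.55 wherever WT oil entered, replicate 1 included. Elsewhere it was 0.18 to 0.37. The shift from -0.92 to -0.04 for DMBA in WT without WT oil replicate 1 lay within it, so this count cannot show that the medians held. Of 498 counts of called genes among the 29, 406 stayed within 1.5 times, whereas of 498 counts over all genes only 236 did and 262 did not; for single genes 1793 of 2114 kept direction and call, 207 lost the call, 106 gained it and 8 turned. The cause was not tested for any of them. Between-array scaling and the combinations with WT oil replicate 1 left out were added after the data were seen. Below, counts of called genes stand without the share of all genes unless a share is stated. Such counts do not set the 29 genes against the rest.

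The median change for DMBA against oil labelled Cyp1b1-null was -0.039 from Cy3 alone, with or without WT oil replicate 1, and -0.54 after between-array scaling. For Cyp1b1-null against WT after DMBA it was -0.73 from Cy3 alone, with or without that array, -0.90 with slide as a random block and -1.63 after scaling. For DMBA against TCDD it was 0.73 with slide as a random block and 0.64 after scaling. For double-null against Cyp1a1-null after BP it was -0.49 after scaling and -0.93 to -0.56 leaving out 1 array each.

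From Cy3 alone the genes called numbered 2 in Cyp1a1-null oil, 15 for Cyp1b1-null against WT after DMBA, 6 in Cyp1b1-null oil, 8 for DMBA against TCDD, 7 after TCDD, 2 for double-null against Cyp1a1-null after BP and 0 in double-null oil; with WT oil replicate 1 also left out these were 2, 15, 7, 8, 7, 5 and 1. With slide as a random block 0 were called in Cyp1b1-null oil, TCDD, DMBA against TCDD, double-null oil and double-null against Cyp1a1-null BP; without WT oil replicate 1 these were 8, 0, 0, 0 and 0. With only the groups compared in the fit, 6 were called for DMBA against oil labelled Cyp1b1-null, 4 for Cyp1b1-null against WT after DMBA, 8 for DMBA against TCDD, and 0 in Cyp1b1-null oil, TCDD, double-null oil and double-null against Cyp1a1-null BP. Between-array scaling gave 7, 15 and 3 for DMBA against oil labelled Cyp1b1-null, Cyp1b1-null against WT after DMBA and the difference of DMBA responses, and 0 in Cyp1b1-null oil, TCDD, double-null oil and double-null against Cyp1a1-null BP. Processed signals gave 0 for DMBA against TCDD, double-null oil and double-null against Cyp1a1-null BP, and without WT oil replicate 1 gave 1, 3, 1 and 4 for DMBA against oil labelled Cyp1b1-null, Cyp1b1-null against WT after DMBA, the difference of responses and DMBA against TCDD. The mean of probes gave 2 in Cyp1a1-null oil and 5 in double-null oil, no background subtraction 0 in double-null oil and in double-null against Cyp1a1-null BP, and the slide shared by DMBA and oil in WT gave 7 called genes, from 1 oil and 2 DMBA arrays, where 29.4% of all genes were called.

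Leaving out 1 array each gave 0 to 22 genes in Cyp1b1-null oil, 0 to 17 in Cyp1a1-null oil, 2 to 14 in double-null oil, 0 to 18 after TCDD, 0 to 2 after BP in WT, 0 to 6 for DMBA against TCDD and 0 to 9 for double-null against Cyp1a1-null BP. The range was 0 to 1 for DMBA against oil labelled Cyp1b1-null, Cyp1b1-null against WT after DMBA, the difference of responses and Cyp1a1-null BP against oil. With the replicate number as a block, 16 genes were called in Cyp1b1-null oil, 4 in double-null oil and 4 after TCDD, and other counts were those without the block.

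The values that turned were those of Blnk in double-null against Cyp1a1-null BP (0.27 from Cy3 alone, with or without WT oil replicate 1) and of Cr2: 0.28 from Cy3 alone for DMBA against oil labelled Cyp1b1-null, with or without that array, -0.059 with the mean of probes in Cyp1b1-null oil, 0.78 and 0.44 from Cy3 alone for the difference of responses with and without that array, and after TCDD -0.027 without WT oil replicate 3, the lowest of values that reached 0.96 without WT oil replicate 1. Groups of 1 to 3 arrays limit how precise any value is.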
